A study of Mus musculus with 6 samples.

Results

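The Ms4a family encodes small tetraspanning membrane proteins, and 6 of its genes, Ms4a1, Ms4a4b, Ms4a4c, Ms4a6b, Ms4a6c and Ms4a7, were followed on the arrays of this study. Every probe whose symbol in the platform's annotation was 1 of these 6 genes was taken, which gave 11 of the 45281 probes of the Illumina MouseWG-6 v2 array, for 6 of 19057 genes. The arrays carried RNA from the whole thymus of 3 wild type C57BL/6 mice and of 3 mice of the miR-181d transgenic line Tg-38, with 1 array per mouse. The mice were a few weeks old, as in all experiments of the study, and neither group received a treatment. Tg-38 is a single line in which the precursor of miR-181d was injected into C57BL/6 eggs in a cassette driven by human CD2 control elements, which are active in T cells of the thymus and the periphery. No probe of the array was listed under a miR-181 gene, so the transgene's own product was not checked here. The question of the comparison was which transcripts differ in a thymus whose T-lineage cells carry more miR-181d.

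Ms4a genes lie side by side on mouse chromosome 19, and in the RefSeq order Ms4a7 is followed by Ms4a4a, Ms4a4c, Ms4a4b, Ms4a6c and Ms4a6b. Each is used by particular blood cells. Ms4a1 encodes CD20 of B cells, Ms4a4b and Ms4a6b encode T cell surface proteins that associate with GITR, a costimulatory receptor of T cells, and Ms4a4c, Ms4a6c and Ms4a7 are best known from monocytes and macrophages. The thymus is made mostly of immature CD4+CD8+ (DP) T cells, with smaller numbers of mature T cells, B cells, macrophages, dendritic cells and epithelial cells. A microRNA pairs with its targets mainly through its seed, bases 2 to 8, and the mature miR-181d that the line over-expresses is given here with its seed in capitals (RefSeq, GRCm38.p6, chr8:84178759-84178781, minus strand). The a, b and c forms of miR-181 listed by RefSeq have the same seed. No target site in an Ms4a transcript was looked for.
miR-181d-5p: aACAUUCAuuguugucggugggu

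Ms4a4b, Ms4a6b and Ms4a7 were the member genes with signal in whole thymus. The only probes of Ms4a1, Ms4a4c and Ms4a6c stayed at or near background in both groups. Some probes of Ms4a4b and Ms4a7 were also undetected, so a probe at background does not show that its transcript was absent. A probe counted as detected on an array when its scanner signal had a detection p under 0.05 against the negative controls, and it was tested when this held on at least 3 of the 6 arrays. Of the 11 member probes 4 were tested, 2 of Ms4a4b and 1 each of Ms4a6b and Ms4a7. The other 7 were at log2 normalized signals of 4.34 to 5.12, while the detection level of the arrays lay between 5.11 and 5.21. No tested member probe passed an adjusted p of 0.05 in limma, where 1.1% of the 18352 probes tested did. At an unadjusted p under 0.05, 2 were higher in Tg-38 and none was lower, against 8.55% of all probes higher and 8.48% lower. In 1 the groups did not overlap, with every Tg-38 array above every wild type array, as in 11.4% of all probes. The log2 fold change was above 0 in 4 of 4, against 48.7% of all probes tested. Its median was 0.52 against -0.01 over all probes tested. The 4 probes stand for 3 genes.

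**Figure D1:**
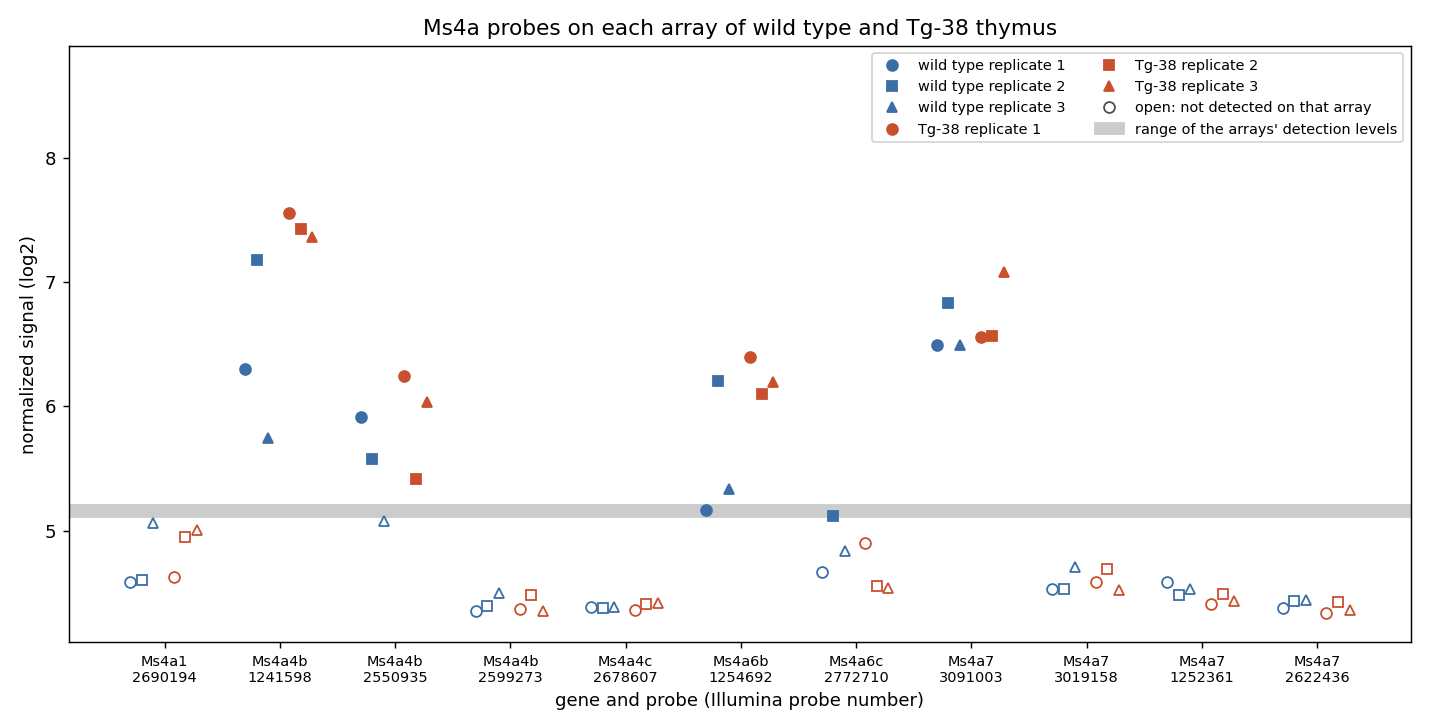
Normalized log2 signal of the 11 Ms4a probes (x axis) on the 3 wild type (blue) and 3 Tg-38 (red) arrays, with marker shape giving the replicate, open markers a detection p of 0.05 or more, and the grey band the range of the detection levels. The brightest Ms4a4b probe had Tg-38 values of 7.37 to 7.56, and wild type replicate 2 stood above the other wild type arrays for this probe and for Ms4a6b.

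Ms4a4b had the largest difference among the member probes tested. Its brightest probe, ILMN_1241598, read log2 normalized signals of 6.30, 7.18 and 5.74 in wild type replicates 1, 2 and 3, and 7.56, 7.43 and 7.37 in the Tg-38 replicates. The transgenic arrays were close together and above all wild type arrays, of which replicate 2 came nearest. The mean log2 signal was 6.41 ± 0.72 (SD, n = 3) in wild type and 7.45 ± 0.10 (SD, n = 3) in Tg-38, a log2 fold change of 1.04 ± 0.30 (SE), or 2.06-fold. This difference had an adjusted p of 0.137 in limma, and an exact two-sided permutation test gave p = 0.1, the smallest that 3 against 3 allow. Before normalization the scanner signals were 208.3, 255.9 and 156.3 in wild type and 292.2, 260.9 and 239.2 in Tg-38, so that on this scale the groups overlapped through wild type replicate 2.

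The remaining Ms4a4b probes gave a smaller difference and no signal. The probe ILMN_2550935 read log2 values of 5.91, 5.58 and 5.08 in wild type and 6.25, 5.41 and 6.04 in Tg-38, and was not detected on the array of wild type replicate 3. Its groups overlapped, and its log2 fold change of 0.38 ± 0.25 (SE) had an adjusted p of 0.492 in limma. Leaving out 1 array moved it between 0.155 (without wild type replicate 3) and 0.62 (without Tg-38 replicate 2), with 0.205 without Tg-38 replicate 1 and 0.573 without wild type replicate 1, and none of these passed the adjusted threshold. The probe ILMN_2599273, at 4.35 to 4.49, was not detected on any array. The annotation places this undetected probe on the RefSeq transcript of Ms4a4b and both detected probes on cDNA clone records filed under the gene. The level of Ms4a4b therefore rests on probes for the clone transcripts, and which part of the gene they cover is not given in the sources used here.

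Ms4a6b, whose protein is a further partner of GITR, was likewise lowest in wild type replicates 1 and 3. Its probe ILMN_1254692 had log2 signals of 5.17, 6.20 and 5.33 in wild type and 6.40, 6.10 and 6.20 in Tg-38. Wild type replicates 1 and 3 were just above the detection level, and replicate 2 lay among the transgenic arrays, so the groups overlapped. The mean was 5.57 ± 0.56 (SD, n = 3) in wild type and 6.23 ± 0.15 (SD, n = 3) in Tg-38. The log2 fold change of 0.66 ± 0.24 (SE), or 1.58-fold, had an unadjusted p of 0.0236 and an adjusted p of 0.217 in limma.

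Single arrays moved the values of both genes. Without wild type replicate 2 the log2 fold change was 1.43 ± 0.17 (SE) for the brightest Ms4a4b probe, with an adjusted p of 0.014, and 0.98 ± 0.14 for Ms4a6b, with an adjusted p of 0.0222, so that 2 member probes passed the threshold. The second Ms4a4b probe was at 0.41 without this array. Leaving out wild type replicate 3 lowered the brightest Ms4a4b probe to 0.713, with an adjusted p of 0.236, and leaving out wild type replicate 1 lowered Ms4a6b to 0.463, with an adjusted p of 0.495. With all 6 arrays and a variance trend on intensity, Ms4a4b passed alone with an adjusted p of 0.0484. Without background correction the log2 fold changes shrank to 0.53 for Ms4a4b and 0.23 for Ms4a6b, with adjusted p of 0.0691 and 0.231. At its unadjusted threshold the methods' t-test, run on the values used here, passed none of the 4 member probes. Wild type replicate 2 also stood apart over all probes tested, at -27.2 on the second principal component, where the other arrays lay between -3.47 and 14.5.

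**Figure D2:**
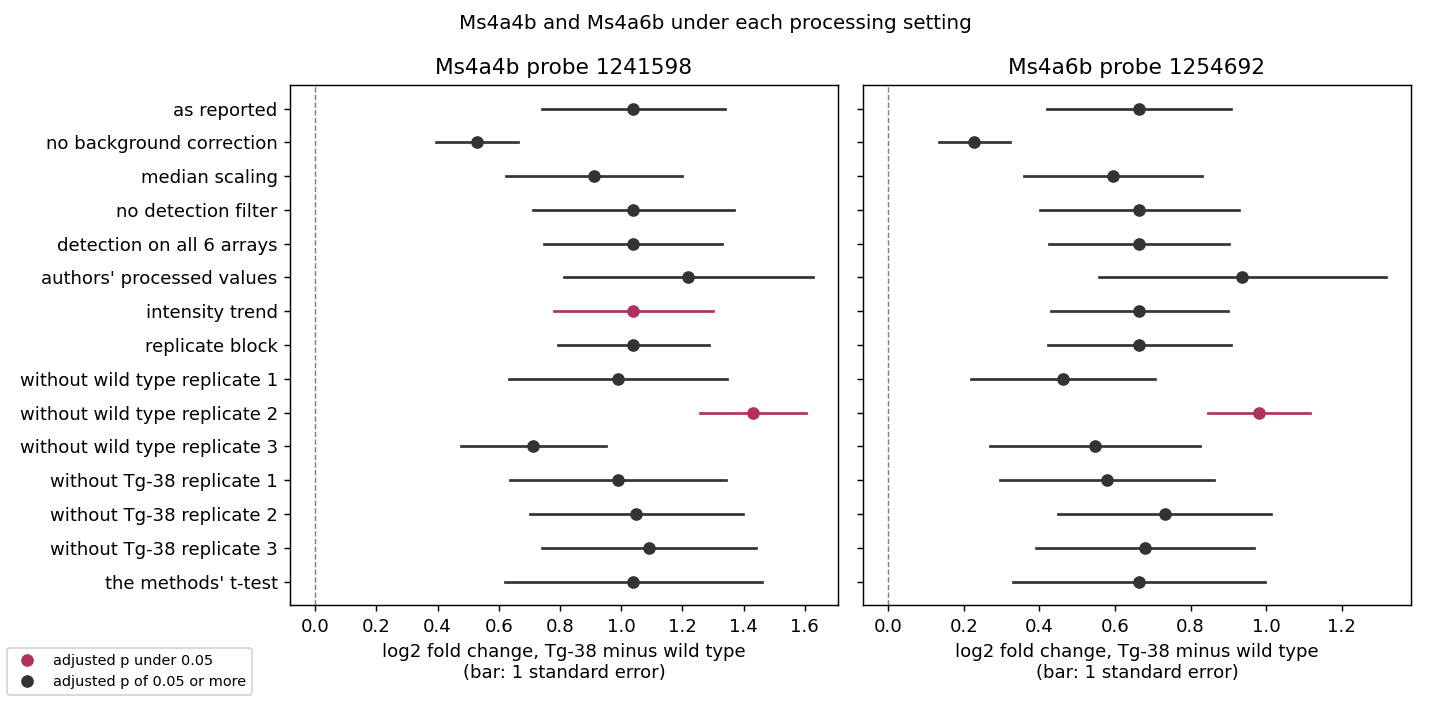
Log2 fold change of Tg-38 over wild type (x axis, bar 1 standard error) for the brightest Ms4a4b probe and the Ms4a6b probe under each processing setting (y axis), with settings at an adjusted p under 0.05 in red. All values were above 0, and leaving out wild type replicate 2 gave 1.43 and 0.98.

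Ms4a7, a gene of macrophages, was detected on every array through 1 of its 4 probes. The probe ILMN_3091003 read log2 signals of 6.49, 6.83 and 6.50 in wild type and 6.56, 6.56 and 7.08 in Tg-38. The groups overlapped, with Tg-38 replicate 3 highest. The log2 fold change was 0.12 ± 0.17 (SE), with a 95% interval of -0.26 to 0.51 and an adjusted p of 0.761 in limma. The interval does not show that the groups were alike, since it holds a change of 0.51. Without Tg-38 replicate 3 the value was -0.05. The other 3 Ms4a7 probes, ILMN_3019158, ILMN_1252361 and ILMN_2622436, were not detected on any array, at log2 values of 4.34 to 4.71.

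Ms4a1, the B cell antigen CD20, was not detected on any array. Its only probe ILMN_2690194 read log2 values of 4.58, 4.60 and 5.06 in wild type and 4.63, 4.95 and 5.00 in Tg-38, and its lowest detection p was 0.0791. Ms4a4c, a paralog of Ms4a4b, was likewise not detected on any array through ILMN_2678607, at 4.36 to 4.42. Ms4a6c, a paralog of Ms4a6b, was detected on the array of wild type replicate 2 alone, with a detection p of 0.0481. Its probe ILMN_2772710 read 4.66, 5.12 and 4.83 in wild type and 4.90, 4.55 and 4.54 in Tg-38, within the range of undetected probes. These values set no fold, because a change below the detection level cannot be seen on the array.

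**Figure D3:**
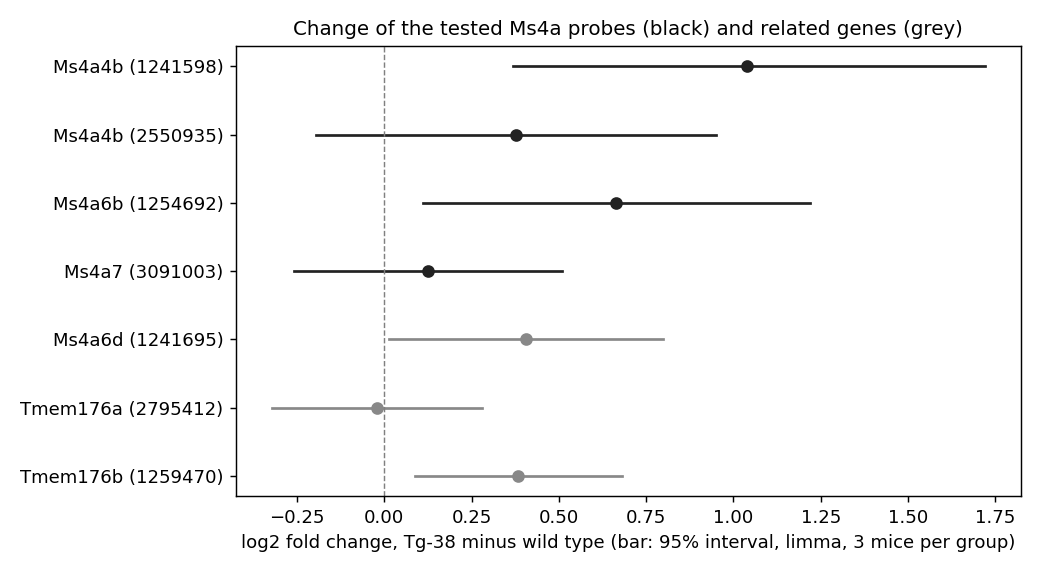
Log2 fold change of Tg-38 over wild type (x axis, bar 95% interval from limma, 3 mice per group) for the 4 tested member probes (black) and the 3 tested probes of related genes (grey). The intervals of the brightest Ms4a4b probe (0.37 to 1.72) and of Ms4a6b (0.11 to 1.22) lay above 0 with limma's moderated spread. None of the 7 probes had an adjusted p under 0.05.

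Ms4a4b and Ms4a4c, and likewise Ms4a6b and Ms4a6c, are paralogs that lie next to each other. The windows from 250 bases before to 50 bases after the annotated start are shown to place these paralogs beside each other in sequence, and the capitals mark the longest run of letters that each shares with its paralog. RefSeq windows (GRCm38.p6, plus strand) were found for 5 of the 6 members, with none for Ms4a1 and more than 1 for Ms4a7. Ms4a4b lies at chr19:11443308-11443607, Ms4a4c at chr19:11407411-11407710, Ms4a6b at chr19:11518309-11518608 and Ms4a6c at chr19:11469118-11469417.
Ms4a4b: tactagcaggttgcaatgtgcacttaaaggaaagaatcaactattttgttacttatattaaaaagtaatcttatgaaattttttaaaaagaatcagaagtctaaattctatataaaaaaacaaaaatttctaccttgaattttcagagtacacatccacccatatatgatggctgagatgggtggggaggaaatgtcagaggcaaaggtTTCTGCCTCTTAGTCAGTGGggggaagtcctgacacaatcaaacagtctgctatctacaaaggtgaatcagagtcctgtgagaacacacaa
Ms4a4c: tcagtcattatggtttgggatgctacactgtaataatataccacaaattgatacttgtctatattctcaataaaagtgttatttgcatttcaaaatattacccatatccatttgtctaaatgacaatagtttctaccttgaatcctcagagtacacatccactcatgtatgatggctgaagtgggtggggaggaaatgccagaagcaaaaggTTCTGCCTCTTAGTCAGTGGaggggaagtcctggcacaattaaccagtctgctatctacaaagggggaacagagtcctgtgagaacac
Ms4a6b: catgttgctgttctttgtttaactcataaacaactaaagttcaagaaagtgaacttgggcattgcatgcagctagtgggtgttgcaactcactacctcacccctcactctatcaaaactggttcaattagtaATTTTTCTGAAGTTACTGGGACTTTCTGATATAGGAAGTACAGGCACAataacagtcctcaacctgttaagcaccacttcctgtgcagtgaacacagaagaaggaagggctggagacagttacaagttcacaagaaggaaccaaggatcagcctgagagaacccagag
Ms4a6c: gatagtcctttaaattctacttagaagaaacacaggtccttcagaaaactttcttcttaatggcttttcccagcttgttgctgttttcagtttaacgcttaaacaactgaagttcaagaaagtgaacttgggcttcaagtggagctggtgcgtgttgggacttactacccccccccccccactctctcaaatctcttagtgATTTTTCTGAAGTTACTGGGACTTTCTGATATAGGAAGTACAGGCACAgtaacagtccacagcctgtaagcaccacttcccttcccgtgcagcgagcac

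In a local alignment the windows of Ms4a4b and Ms4a4c matched at 76.1% of 301 aligned positions, with a longest shared run of 20 bases. Those of Ms4a6b and Ms4a6c matched at 82.5% of 234 positions, with a longest shared run of 48 bases. Pairs outside these paralogs shared runs of 7 to 9 bases. The shared run of Ms4a6b and Ms4a6c sits at -118 to -71 of the Ms4a6b start and at -49 to -2 of the Ms4a6c start. The annotated starts therefore lie at different distances from this run.

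Letters of known factor sites were searched on both strands, with the motifs picked after these windows had been seen. AGGAAGT, an Ets core that is present in 9.35% of the 32851 RefSeq windows, and GGGACTTTC, an NF-kB element that is present in 0.353%, both stand inside the run that Ms4a6b and Ms4a6c share. They lie at -86 to -80 and -101 to -93 in Ms4a6b and at -17 to -11 and -32 to -24 in Ms4a6c. Ms4a6b had a second AGGAAGT on the minus strand at -43 to -37. GAAANNGAA, as in interferon response elements, is present in 8.56% of windows and stood at -206 to -198 in Ms4a6b, at -133 to -125 in Ms4a6c and in both Ms4a7 windows. TTCNNNGAA, a STAT element that is present in 8.3% of windows, had no match in any member window, and Ms4a4b and Ms4a4c held none of the motifs searched. A match describes letters and is not a measured site.

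**Figure D4:**
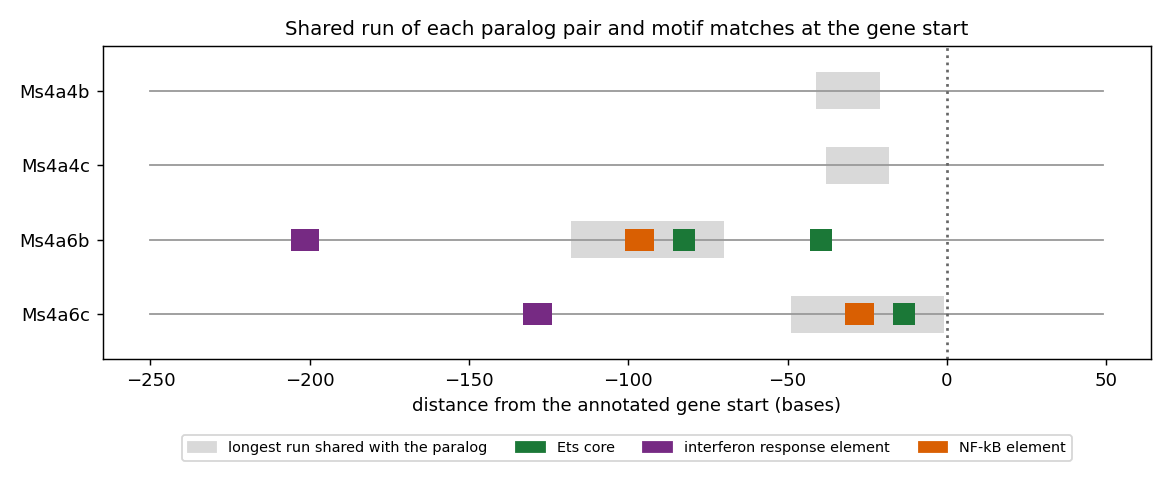
Position in bases from the annotated gene start (x axis) of the longest run shared with the paralog (grey) and of motif matches (colours) in the windows of Ms4a4b, Ms4a4c, Ms4a6b and Ms4a6c. The run of 48 bases holds the NF-kB and Ets letters in both Ms4a6b and Ms4a6c, while the windows of Ms4a4b and Ms4a4c hold no match.

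Other genes of the family gave signal in few cases. A list of 16 further Ms4a and related tetraspanning genes had 12 genes on the array with 18 probes, of which 3 were tested. None passed the adjusted threshold in limma, and 2 were higher at an unadjusted p under 0.05, as were 8.55% of all probes tested. Ms4a6d, a macrophage gene next in line after Ms4a6b and Ms4a4d, read log2 values of 6.69, 6.67 and 6.23 in wild type and 6.91, 6.69 and 7.21 in Tg-38 through ILMN_1241695. Its groups overlapped, and the log2 fold change of 0.41 ± 0.17 (SE) had an adjusted p of 0.279. It was 0.258 without wild type replicate 3 and 0.268 without Tg-38 replicate 3. A second Ms4a6d probe, ILMN_2602352, was detected on 2 Tg-38 arrays and no wild type array. It read log2 values of 4.64, 4.64 and 4.84 in wild type and 5.61, 5.11 and 5.74 in Tg-38. Tg-38 replicate 2 was itself not detected, with a detection p of 0.063, and the scanner signals of the groups overlapped. No fold is set for this probe, which was not tested.

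The related Tmem176b, a tetraspanning protein of dendritic cells, had log2 values of 8.67, 8.63 and 8.56 in wild type and 8.85, 8.91 and 9.26 in Tg-38 through ILMN_1259470. Every Tg-38 array was above every wild type array, and the log2 fold change of 0.38 ± 0.13 (SE) had an adjusted p of 0.192. Its neighbour Tmem176a, through ILMN_2795412, had a log2 fold change of -0.02 ± 0.13 (SE) with overlapping groups. Ms4a2, the beta chain of the IgE receptor of mast cells, Ms4a3 of granulocyte precursors, Ms4a4d, Ms4a5, Ms4a8a, Ms4a10, Ms4a13, Ms4a15 and Ms4a18 were not detected on any array. Over the whole array 27 probes of 17 genes carried an Ms4a symbol, and 5 were detected on at least 3 arrays.

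In bulk thymus fewer cells of a type and less RNA per cell cannot be told apart. Marker genes of the cells that use Ms4a genes were therefore set beside these values. Over all probes tested 48.7% had a log2 fold change above 0, the share to read beside the counts of each list. DP thymocyte markers gave signal in both groups, with 10 of 12 genes on the array tested and Cd8a and Ccr9 not detected by their probes. Their summed level, on the linear scale of the normalized signals, was 70510 to 75610 in wild type and 63980 to 68100 in Tg-38. Cd8b1 and Satb1, at mean log2 of 14.83 and 14.57 in wild type, weighed most in this sum, with log2 fold changes of -0.13 and -0.09. No DP marker passed the adjusted threshold. At an unadjusted p under 0.05 in limma 2 of 10 were lower, against 8.48% of all probes tested. These were Cd4 with a log2 fold change of -0.46 and Rag1 with -0.34.

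No B cell marker passed the adjusted threshold. Of 13 genes on the array 7 were tested. At an unadjusted p under 0.05 in limma 1 was higher and 2 were lower, against 8.55% and 8.48% of all probes tested. Spib, a transcription factor that B cells share with other cells, had a log2 fold change of 0.68, and the receptor chain Cd79b and the kinase Blk had -0.55 and -0.39. Of the 7 tested genes 4 were above 0, with a median of 0.22. Bank1, Cd22, Cr2, Fcer2a, Pax5 and Vpreb3 were, like Ms4a1, not detected. The summed level was 1131 to 1200 in wild type and 979.4 to 1081 in Tg-38. Cd79b, at a mean log2 of 9.26 in wild type, was the brightest tested gene and weighed most in this sum. Of the B cell receptor complex and its coreceptors 4 of 7 genes on the array were tested, with a median log2 fold change of -0.25, and none passed the adjusted threshold.

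Some T cell genes outside the family rose in Tg-38. Of 7 tested mature T cell markers 6 had a log2 fold change above 0, with a median of 0.38, and 2 rose with an adjusted p under 0.05. These were the interleukin-7 receptor Il7r, by 0.97 with an adjusted p of 0.0236, and the integrin Itgb7, by 0.93 with an adjusted p of 0.0287. The adjusted p of Il7r was over 0.05 without any 1 array other than wild type replicate 2, at up to 0.0962 without wild type replicate 3, and that of Itgb7 without any other than wild type replicate 2 or Tg-38 replicate 2, at up to 0.107 without wild type replicate 1. Their list summed to 16630 to 17960 in wild type and 20340 to 23540 in Tg-38, with Gimap4 and S1pr1 not detected. Cd52, at a mean log2 of 13.64 in wild type, was its brightest tested gene and weighed most in this sum. Its log2 fold change was 0.27 with an adjusted p of 0.255 in limma. Tnfrsf18, which encodes the GITR partner of Ms4a4b and Ms4a6b and was named for that after its value was seen, had a log2 fold change of 0.27 ± 0.11 (SE) with an adjusted p of 0.255 in limma. Of 9 tested regulatory T cell and GITR genes 8 were above 0, with a median of 0.27 and summed levels of 2809 to 2979 in wild type and 3212 to 3363 in Tg-38. The transcription factor Ikzf2 fell by 0.62 with an adjusted p of 0.0488, which lay between 0.0679 (without wild type replicate 2) and 0.16 (without Tg-38 replicate 3) when any 1 array was left out, and Il2ra had a log2 fold change of 0.57 with an adjusted p of 0.0892. The part of these shifts in the Ms4a values was not tested.

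Macrophage markers, which bear on Ms4a7 and Ms4a6d, summed to 3102 to 3394 in wild type and 4167 to 4768 in Tg-38. Of 11 tested 9 were above 0, against 48.7% of all probes tested. At an unadjusted p under 0.05 in limma 6 were higher, against 8.55% of all probes tested. None passed the adjusted threshold, and Lyz2, the macrophage lysozyme, had a log2 fold change of 0.65 with an adjusted p of 0.0573. Cd14, Cd163, Fcgr1, Itgam, Marco and Vsig4 were not detected. Monocyte and neutrophil markers summed to 6887 to 8174 in wild type and 7422 to 12760 in Tg-38, and dendritic cell markers to 473.8 to 773.3 and 556.2 to 783.5. Of these lists none of the 7 and 4 genes tested passed the adjusted threshold. Of the 7 monocyte and neutrophil genes 6 were above 0. The gene of smallest p, F13a1, went the other way, at -0.56 with an adjusted p of 0.0619 in limma. S100a8, the brightest gene of that list and so the heaviest in its sum, had 0.68 with an adjusted p of 0.202. The macrophage list had a median log2 fold change of 0.44, beside 0.12 for the tested Ms4a7 probe and 0.41 for the tested Ms4a6d probe. The part of macrophage genes in the Ms4a values was not tested.

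Other lists are given by their counts. Of 8 tested natural killer and cytotoxic genes 3 rose with an adjusted p under 0.05 in limma. Their log2 fold changes were 2.16 for Klrd1, 1.06 for Ctsw and 1.16 for Nkg7. The other tested genes of the list had -0.14 to 0.52 and did not pass, and the list's median was 0.34. Eomes, Gzmb, Klre1, Klrk1 and Ncr1 were not detected. Ctsw and Nkg7 did not pass without wild type replicate 1 or 3 or Tg-38 replicate 1 or 3, at adjusted p of up to 0.0915 and 0.116, both without Tg-38 replicate 3. Interferon-induced genes are a class in which Ms4a4c is counted in macrophages. Of 15 tested 15 were above 0, against 48.7% of all probes tested, with a median of 0.29. An adjusted p under 0.05 in limma was reached by 2, the chemokine Cxcl9, which rose by 1.76, and Ifit3, by 1.23. Ifit3 had an adjusted p of 0.0729 without Tg-38 replicate 1 and 0.0787 without Tg-38 replicate 3. The only Ms4a4c probe stayed undetected on the same arrays. Of 3 tested mast cell markers none passed the adjusted threshold, with a median of 0.19. The 2 tested erythroid genes had log2 fold changes of -1.57 for Hba-a1 and -1.92 for Alas2, with adjusted p of 0.0882 and 0.105.

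The genes whose array pattern was nearest to Ms4a4b and Ms4a6b included genes known from epithelial tissues. The measure was the root mean square difference of log2 signals over the 6 arrays, after each probe's own mean was taken off, and it is a description over 6 points that share their arrays. Nearest to ILMN_1241598 of Ms4a4b, among 15398 probes, were Cyp2a5, a cytochrome P450 of liver, at 0.148, the scaffold gene Grasp at 0.162 and Sftpd, the lung surfactant protein D, at 0.213. Nearest to Ms4a6b were the cell adhesion gene Cdh1 (E-cadherin) at 0.0461, Frmd4a at 0.0762 and the ephrin receptor Ephb4 at 0.0763. Cdh1 read 6.11, 7.12 and 6.18 in wild type and 7.24, 6.99 and 7.17 in Tg-38, high on wild type replicate 2 as Ms4a6b was.

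Medullary thymic epithelium, the cells that show tissue antigens to developing T cells, was therefore set beside these genes, with a list written after the values were seen and so given without a test of its own. The list holds Cdh1, the gene nearest to Ms4a6b, so a likeness to Ms4a6b is partly built in. All 6 of its tested genes, of 9 on the array, had log2 fold changes above 0, with a median of 0.78. Aire, the regulator of tissue antigen expression, had 0.79 and the keratin Krt14 1.02, and no gene of the list passed the adjusted threshold in limma. The mean log2 level of the list, relative to wild type, was -0.21, 0.44 and -0.23 in the wild type replicates and 0.83, 0.61 and 0.83 in Tg-38. The summed level was 1081 to 1454 in wild type and 1839 to 1977 in Tg-38, and Cldn3, Epcam and Krt5 were not detected. For cortical epithelium, in a list made at the same time, 4 of 5 tested genes were above 0, with a median of 0.17 and sums of 2185 to 4581 and 3221 to 3689. On the same scale wild type replicates 1, 2 and 3 were at -0.04, 0.15 and -0.11 for the cortical list. They were at -0.01, 0.25 and -0.24 for dendritic cell markers and at 0.03, 0.04 and -0.07 for mature T cell markers. The erythroid markers, which were lower in Tg-38, stood at -0.95, 0.48 and 0.47 on these wild type arrays. The part of the epithelial genes in the Ms4a values was not tested.

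**Figure D5:**
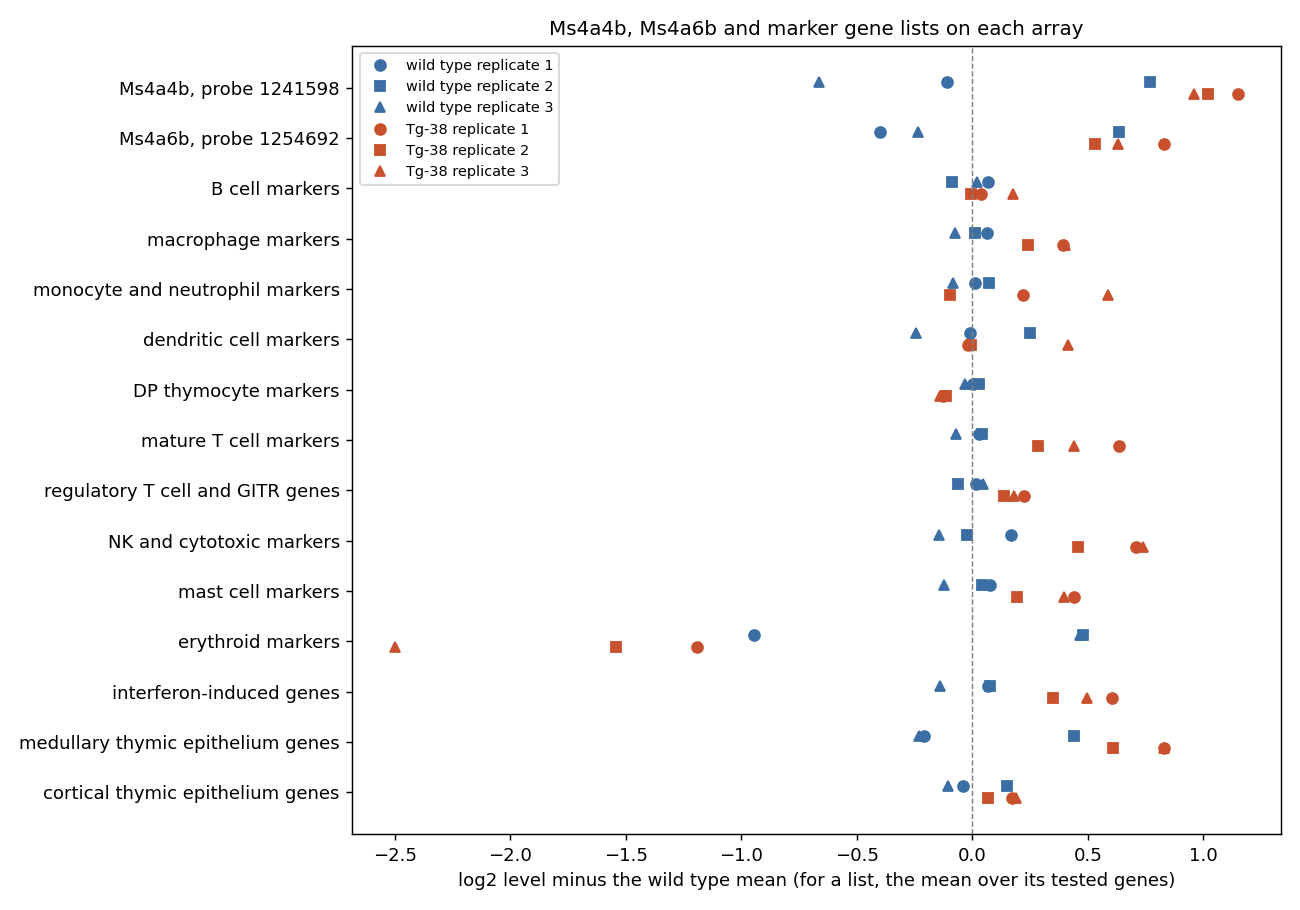
Log2 level relative to the wild type mean (x axis) of Ms4a4b, Ms4a6b and the mean of each marker gene list (y axis) on the 3 wild type (blue) and 3 Tg-38 (red) arrays, with marker shape giving the replicate. Wild type replicate 2 (blue square) lay at 0.48 for erythroid markers, 0.44 for the medullary epithelial list and 0.25 for dendritic cell markers. It lay at 0.15 for the cortical epithelial list and 0.04 for mature T cell markers.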

How the data were processed

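Whole thymus RNA of 3 wild type and 3 Tg-38 mice was hybridised to Illumina arrays, 1 per mouse, and read with GenomeStudio (version not given in the sources used here). The authors deposited, for every probe and array, a linear intensity (the mean over its beads) that had not been normalized, and beside it a detection p-value computed from negative control beads. They also deposited processed intensities, linear and background-removed by a method not given in the sources used here, which served as an alternative.

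The tools were R 4.3.3 with limma 3.58.1 and statmod 1.5.0. From the scanner intensities neqc took off the background inferred from the detection p-values, added an offset of 16, set the arrays to common quantiles and gave log2 values. This stretches differences near background, so a log2 fold change of a dim probe depends on that step. Of 45281 probes, the 18352 detected at p under 0.05 on 3 or more arrays entered the test. The groups were compared with lmFit and eBayes, two-sided, with Benjamini-Hochberg adjustment over all of them. The test was checked on simulated data, with changes placed only in probes brighter in wild type than any tested member probe. The check therefore does not cover probes as dim as the members. The arrays correlated at 0.988 to 0.995, 17674 to 18526 probes were detected per array, and the number of mice limits the precision. The limma p-values rest on the spread between these mice, moderated by the spread of all probes tested (4.93 prior and 4 residual degrees of freedom). Without this moderation the methods' t-test gave the brightest Ms4a4b probe an SE of 0.42 and an unadjusted p of 0.0681. It gave Ms4a6b an SE of 0.333 and an unadjusted p of 0.117.

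Symbols come from the platform annotation, which lists 34885 probes under 1 gene, 18 under several and 10378 under none. Probe sequences were not used here, and cross-hybridisation between Ms4a paralogs cannot be told. Signals of different probes were ranked or summed only as signals, as for the brightest probe of a gene and the summed level of a list. They are not read as relative amounts of transcript.

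The members and the 13 gene lists were chosen with earlier results of these data known, and 2 epithelial lists were added after values had been seen. Named were all probes of the members and of the related family list, at most 3 genes of smallest p from each other list, and the 3 genes nearest in array pattern to each member whose brightest probe was detected on all 6 arrays with an absolute log2 fold change of at least 0.5. The epithelial genes, Tnfrsf18, Cd52, Cd8b1 and Satb1 were named outside this rule. For a list the brightest tested probe of each gene was used. Sequences and gene order are RefSeq's (GRCm38.p6), aligned with Biopython 1.88. Alternatives covered background correction, scaling, detection filter, the authors' processed values, variance trend, a replicate block, the methods' t-test and leaving out each array. The replicate numbers did not pair the mice, with same-number correlations of 0.03, -0.12 and -0.10.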

Additional observations from a re-analysis of the deposited data

How the results depend on the processing

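The log2 fold changes of the 4 tested member probes stayed above 0 in 54 of 55 values under the alternatives, the exception being Ms4a7, which leaving out 1 array moved from -0.0482 (without Tg-38 replicate 3) to 0.238. None to 2 member probes passed the adjusted threshold. The count was 1 with the intensity trend, and leaving out each array in turn gave 0 to 2, with 2 without wild type replicate 2. The brightest Ms4a4b probe ranged from 0.53 to 1.43 and Ms4a6b from 0.23 to 0.98, the lowest without background correction. Over all probes 202 passed. This count was 397 without background correction, 48 with no detection filter, 44 on the authors' processed values, 481 with the intensity trend and 1 by the methods' t-test, which passed 2692 at its unadjusted threshold. Leaving out 1 array gave 20 to 275, with 26 without wild type replicate 1, 275 without replicate 2 and 21 without replicate 3, and 21, 65 and 20 without Tg-38 replicates 1, 2 and 3. Median scaling moved the median of all probes to -0.14 and the share of called probes that were higher in Tg-38 from 72.8% to 35.9%, with Ms4a4b at 0.91 and Ms4a6b at 0.60. With the replicate block 27 probes passed, none of them a member, and Ms4a4b had an adjusted p of 0.157. The block changed no member's call. Leaving out 1 array in turn also turned the direction of Tmem176a, which ranged from -0.0898 to 0.0947 (0.0444 without wild type replicate 1, 0.0947 without Tg-38 replicate 2), of the dendritic cell genes Batf3, from -0.104 (without Tg-38 replicate 3) to 0.31, and Bst2, from -0.0974 (without wild type replicate 3) to 0.684 with -0.0311 without Tg-38 replicate 3, and of the mast cell gene Cpa3, from -0.121 to 0.0158 (without wild type replicate 3). The cause of these reversals was not tested. Of 652 single-gene values under the alternatives, 560 kept their direction and their side of the threshold. Of the rest, 50 were no longer past it, 35 newly passed it and 7 reversed. Settings that change only the test or the filter could not reverse a direction. Among the genes named, the calls of Il7r, Itgb7, Ikzf2, Ctsw and Nkg7 were lost in 8 to 10 of 14 alternatives each, Ifit3's in 5, and Klrd1's and Cxcl9's in 1 each. Signals near the detection level limit what can be seen for Ms4a1, Ms4a4c and Ms4a6c.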
